A study of Mus musculus with 6 samples.

Results

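The 10 genes described here encode two-pore leak potassium channels (K2P channels): Kcnk1, Kcnk2, Kcnk3, Kcnk4, Kcnk5, Kcnk9, Kcnk10, Kcnk12, Kcnk13 and Kcnk18. They were taken by symbol from a deposited table of 23029 mouse genes in RPKM, a read count scaled to gene length and sequencing depth, and all 10 were found there. The table covers 6 libraries of cells sorted from dorsal root ganglia, with 2 libraries for each of 3 subsets. DP cells were stained by isolectin B4 (IB4) and carried the GINIP reporter, and the labels call them Mrgprd+ neurons. C-LTMR cells, named for C-fibre low-threshold mechanoreceptors, carried the reporter without IB4 staining. DN cells had neither and are the cells that remained. All 3 subsets came from mice of the genotype GINIP+/mcherry, so every library, those of DN included, comes from mice with the mCherry reporter allele, and none from mice without it. Sorting is the one treatment named, and neither the age nor the number of the animals is given in the labels. Nor do these say that the replicates were separate animals, so the tests measure the spread between these libraries alone, which may be technical.

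K2P channels are dimers that let potassium leave the cell at rest, and so they help to set the resting potential and the input resistance of a neuron. Subfamilies differ in what opens or closes them: TREK and TRAAK channels respond to stretch, heat and lipids, TASK and TALK channels to pH, TRESK to calcium through calcineurin, and THIK channels are inhibited by halothane. In sensory neurons TREK-1, TRAAK and TRESK are known for limiting the response to heat, cold, touch and inflammatory mediators. Levels below are in RPKM, a scale per length. Shares, ratios and orders between genes rest on gene lengths that the labels do not give and on RNA that was amplified before sequencing, which can shift one gene against another.

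The 3 subsets differed in which K2P genes were most abundant. DP cells had mainly the THIK genes Kcnk12 and Kcnk13, C-LTMR cells mainly the TWIK-1 gene Kcnk1 together with Kcnk13, and DN cells mainly the TASK-1 gene Kcnk3 and the TREK-1 gene Kcnk2. The summed level of the 10 genes was 56.9 and 54.4 RPKM in DP, 38.5 and 35.3 RPKM in C-LTMR, and 72.1 and 57.3 RPKM in DN. Of that sum, Kcnk12 and Kcnk13 together made up 74.6% ± 0.207 in DP, 33.6% ± 0.667 in C-LTMR, against 6.82% ± 0.146 in DN (SD, n = 2 libraries each). Kcnk2 and Kcnk3 together made up 3.06% ± 0.581 in DP, 3.06% ± 0.494 in C-LTMR, against 53.2% ± 0.935 in DN. Kcnk1 alone held 7.87% ± 0.968 in DP, 42.3% ± 0.430 in C-LTMR, against 17.8% ± 0.286 in DN. These shares are descriptions with no test.

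**Figure D1:**
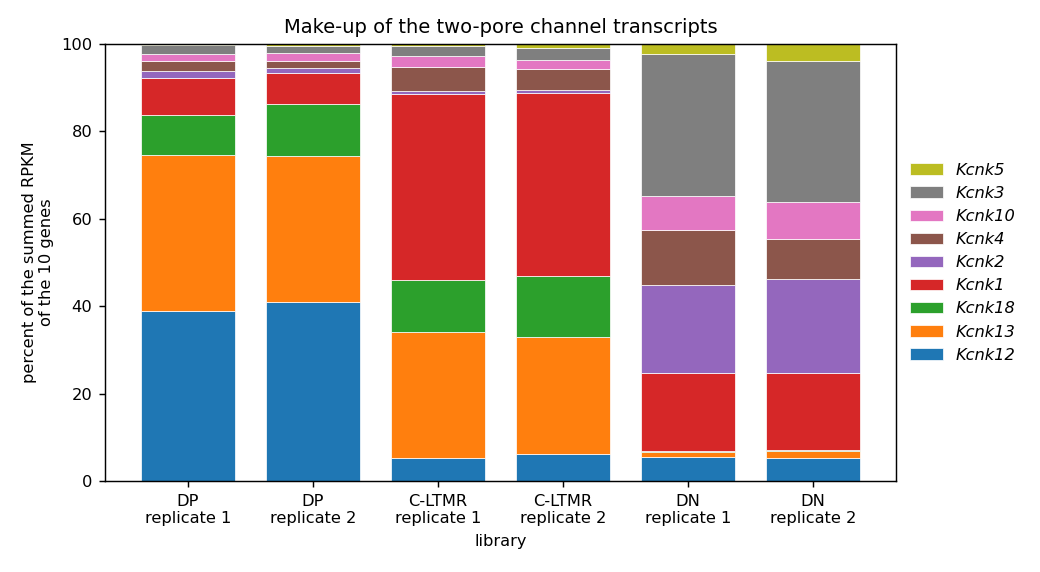
Percent of the summed RPKM of the 10 genes held by each gene (stacked, vertical axis) in each of the 6 libraries (horizontal axis); Kcnk9 was at 0 and is not drawn. The THIK genes Kcnk12 and Kcnk13 filled 74.6% of the DP bars on average, Kcnk1 42.3% of the C-LTMR bars, and Kcnk2 with Kcnk3 53.2% of the DN bars.

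The start regions of 4 genes are shown, 3 that were high in DP and 1 that was high in DN, so that their base composition can be read beside their levels. Each is the 250 bases before the start of transcription from RefSeq (GRCm38.p6), 5′ to 3′ on the gene's strand, with CG dinucleotides in capitals. Kcnk12 (chr17:87797995-87798244, minus strand) is the gene highest in DP, Kcnk13 (chr12:99964249-99964498, plus strand) and Kcnk18 (chr19:59219398-59219647, plus strand) are high in both GINIP+ subsets, and Kcnk2 (chr1:189344193-189344442, minus strand) is high in DN; of its 4 starts in the RefSeq table, the one at the edge of the gene's row was taken.
Kcnk12: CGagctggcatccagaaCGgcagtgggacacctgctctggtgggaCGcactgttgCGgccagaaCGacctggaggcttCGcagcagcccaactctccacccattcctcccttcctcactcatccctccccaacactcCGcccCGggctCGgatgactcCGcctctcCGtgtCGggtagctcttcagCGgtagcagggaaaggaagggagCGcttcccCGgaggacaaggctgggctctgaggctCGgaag
Kcnk13: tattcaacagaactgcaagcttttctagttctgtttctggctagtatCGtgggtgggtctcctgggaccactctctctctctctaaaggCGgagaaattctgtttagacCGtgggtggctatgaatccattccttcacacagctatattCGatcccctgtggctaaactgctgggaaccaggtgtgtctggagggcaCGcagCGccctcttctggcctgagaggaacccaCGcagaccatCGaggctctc
Kcnk18: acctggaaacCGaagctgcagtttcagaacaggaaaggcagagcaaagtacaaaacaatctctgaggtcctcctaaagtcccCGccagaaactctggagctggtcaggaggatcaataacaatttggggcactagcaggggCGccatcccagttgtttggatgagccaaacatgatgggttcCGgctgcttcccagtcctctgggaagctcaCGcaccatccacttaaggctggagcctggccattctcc
Kcnk2: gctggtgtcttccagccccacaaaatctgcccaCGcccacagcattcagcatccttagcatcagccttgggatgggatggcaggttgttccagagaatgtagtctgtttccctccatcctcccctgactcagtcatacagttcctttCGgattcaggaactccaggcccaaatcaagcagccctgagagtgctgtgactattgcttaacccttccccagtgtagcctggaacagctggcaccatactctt
The windows held 16 CG dinucleotides for Kcnk12, 8 for Kcnk13, 5 for Kcnk18 and 2 for Kcnk2, against a median of 6 over the 32851 windows of the RefSeq table. The other 4 members with a window had 19 for Kcnk5, 4 for Kcnk10, 3 for Kcnk4 and 0 for Kcnk1, so genes highest in DN held both the most and some of the fewest. The GC content of the printed windows was 64.8%, 52.8%, 53.6% and 53.2% for Kcnk12, Kcnk13, Kcnk18 and Kcnk2, with 62.8% for Kcnk5 and 44.4% for Kcnk1 among the others, against a median of 52.4%. The RUNX core letters TGTGGT and TGCGGT, searched because Runx1 is the transcription factor known for specifying non-peptidergic neurons, had no match on either strand in these 4 windows; of the other 4, the Kcnk5 window had 1 match, to the motif that holds CG. TGTGGT matched in 14.0% and TGCGGT in 5.10% of all windows. The GC box GGGCGG matched once in the windows of Kcnk12, Kcnk4 and Kcnk10, 3 times in that of Kcnk5 and in none of the other 4, against 32.7% of all windows with a match, and TATAAA matched in none of the 8, against 12.4%. Of the 10 members 8 had an entry in that table, Kcnk3 and Kcnk9 not.

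The sort was checked with marker lists, whose summed RPKM is given as the range over both libraries. Markers of Mrgprd nociceptors summed to 1230 to 1245 in DP, 334 to 338 in C-LTMR and 31.5 to 37.9 in DN, and 7 of 8 C-LTMR markers that are in the table to 82.4 to 94.4, 1351 to 1359 and 18.8 to 38.1 in the same subsets. Itch-related markers (4 of 8 higher and 3 of 8 lower in DP than in C-LTMR, and 2 of 8 higher in C-LTMR than in DN) summed to 37.7 to 50.01 in DP, 205 to 278 in C-LTMR and 10.4 to 11.9 in DN. Most of the C-LTMR sum was Mrgpra3, a receptor gene of itch neurons, at 17.5 and 16.2 RPKM in DP, 259 and 190.3 in C-LTMR, and 0 and 0.120 in DN. Markers of myelinated mechanoreceptors and proprioceptors (0 of 10 higher and 3 of 10 lower in DP than in C-LTMR) summed to 355 to 369 in DP, 277 to 346 in C-LTMR and 262 to 391 in DN. These sums hide genes that went opposite ways. Against DN, 1 of 10 was higher and 2 of 10 were lower in DP, and 3 of 10 were higher and 2 of 10 lower in C-LTMR. Nefm alone was at 286.9 and 285.5 RPKM in DP, 201.0 and 149.5 in C-LTMR, and 272.9 and 185.6 in DN. The 3 of 4 red blood cell markers that are in the table, with Hba-a1 at 0 in every subset, summed to 2.95 to 3.60 in DP, 21.5 to 24.8 in C-LTMR and 1.49 to 4.03 in DN. Most of this sum was Alas2 alone, at 2.89 and 3.53 RPKM in DP, 21.3 and 23.8 in C-LTMR, and 1.49 and 3.91 in DN. Peptidergic markers, of which 8 of 8 were higher in DN than in either other subset, summed to 821 to 928 in DP, 1237 to 1321 in C-LTMR and 8063 to 8944 in DN. Markers of other cells were also higher in DN. Satellite glia markers (10 of 10 higher in DN than in either other subset) summed to 765 to 1289.6 in DP, 1087 to 2037 in C-LTMR and 7587 to 17472 in DN, and endothelial markers (8 of 8) to 1.67 to 2.95, 0.267 to 0.510 and 212 to 366, with Tie1 at 0 in C-LTMR. Pericyte, smooth muscle and fibroblast markers summed to 24.0 to 28.5, 8.05 to 12.5 and 344 to 499 in the same order. Of these, 9 of 10 were higher in DN than in DP, all but Pdgfrb, and 9 of 10 were higher in DN than in C-LTMR, all but Pdgfra. Markers of myelinating Schwann cells (7 of 8 higher in DN than in either other subset) summed to 542 to 566 in DP, 1313 to 1356 in C-LTMR and 1513 to 1596 in DN. Neutrophil genes (6 of 6 higher in DP than in C-LTMR) summed to 218.5 to 250.4 in DP, 0.204 to 0.217 in C-LTMR, with Camp at 0, and 31.9 to 61.2 in DN. Macrophage and other immune markers (5 of 10 higher in DP than in C-LTMR) summed to 40.9 to 43.1, 5.52 to 9.95 and 39.8 to 65.2 in the same order, with Cx3cr1 at 0 in C-LTMR. Of these, 1 of 10 was higher and 4 of 10 were lower in DP than in DN, and 4 of 10 were lower in C-LTMR than in DN. Most of the DP sum was Lyz2, at 34.3 and 29.8 RPKM in DP, 0.2325 and 0.0302 in C-LTMR, and 13.9 and 18.8 in DN. Pan-sensory-neuron genes (0 of 19 higher and 2 of 19 lower in DP than in C-LTMR) summed to 12467 to 12802 in DP, 12110 to 12740 in C-LTMR and 8438.5 to 11389 in DN. Against DN, 5 of 19 were higher and 2 of 19 lower in DP, and 6 of 19 were higher and 2 of 19 lower in C-LTMR. The 2 lower genes were Gap43 and Thy1 in both cases, so this list did not move as one. The part of these other cells in the differences below was not tested, and in bulk RNA fewer cells of a type and less RNA per cell cannot be told apart.

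Differences were tested with limma on log2(RPKM + 0.1) over 15544 genes, with Benjamini-Hochberg adjustment over all of them. Called genes had an adjusted p below 0.05 and differed at least 2-fold, a log2 fold change of 1 or more in size. Of the 10 members, 9 passed the filter of at least 0.1 RPKM in at least 2 libraries, and Kcnk9 did not. Between DP and C-LTMR 2 members were higher and 1 was lower in DP, where 15.2% of all genes tested were called (6.65% with DP above C-LTMR and 8.52% with DP below it). Between DP and DN 3 were higher and 6 lower in DP, against 33.3% of all genes called (7.75% higher in DP and 25.5% higher in DN). Between C-LTMR and DN 2 were higher and 5 lower in C-LTMR, against 32.1% of all genes called (8.58% higher in C-LTMR and 23.5% higher in DN). The split of all called genes depended on the scaling: the higher share was 23.3% in DP over DN and 26.7% in C-LTMR over DN, against 47.7% and 49.0% after quantile normalization and 12.6% and 13.2% after rescaling to pan-sensory-neuron genes, and no member called against DN lost its call under either. The median log2 fold change of the tested members was 0.11 in DP over C-LTMR, -2.37 in DP over DN and -1.80 in C-LTMR over DN, beside -0.05, -0.20 and -0.10 over all genes tested. DP and C-LTMR are both set against the same DN libraries, so their differences from DN are not separate evidence. Kcnk1, Kcnk2, Kcnk3 and Kcnk10 overlap other annotated genes, and without knowing the use of strand their reads cannot be told apart there.

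**Figure D2:**
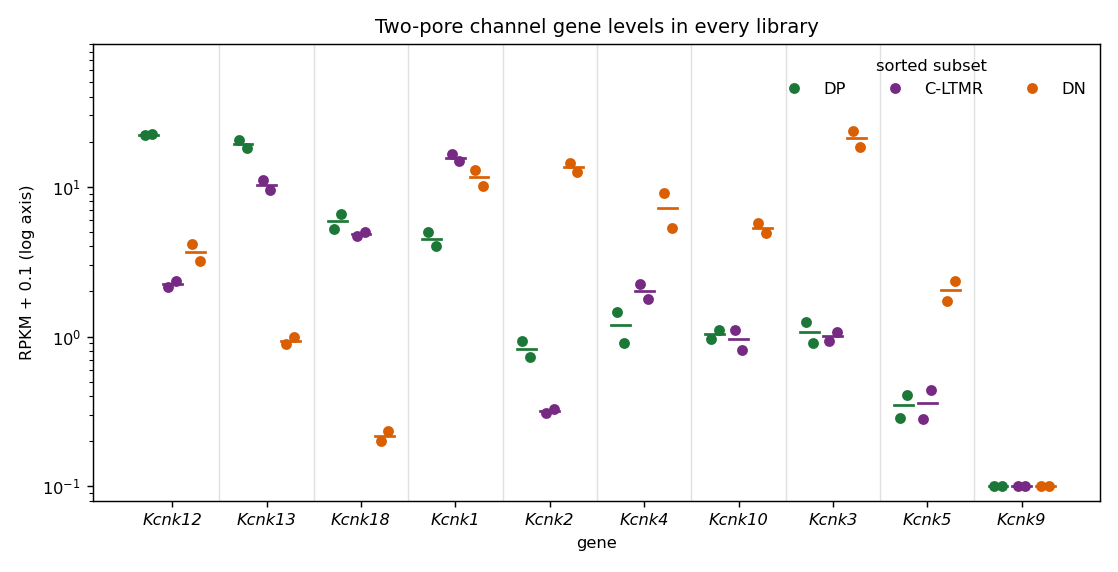
Level of each gene in each library as RPKM + 0.1 on a log axis; points are libraries, short lines the mean of the 2 libraries of a subset, and colours the subsets. Kcnk12, Kcnk13 and Kcnk18 lay higher in DP than in DN, with Kcnk12 at 22.2 RPKM in DP, while Kcnk2, Kcnk3, Kcnk4, Kcnk5 and Kcnk10 lay highest in DN and Kcnk9 was listed at 0 throughout.

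The THIK genes separated the subsets in different ways. Kcnk12 (Entrez 210741, GRCm38 chr17:87745821-87797994) encodes THIK-2, which gives little current alone because it is held in the endoplasmic reticulum, and which can pair with THIK-1. It was at 22.1 and 22.3 RPKM in DP, 2.05 and 2.23 in C-LTMR, and 4.05 and 3.08 in DN. Both DP libraries stood far above all others, and DN lay slightly above C-LTMR. Its level in DP was 10.4-fold that in C-LTMR (log2 fold change 3.32, SE 0.153, limma adjusted p = 5.25e-05) and 6.24-fold that in DN (2.62, SE 0.153, limma adjusted p = 2.98e-05). C-LTMR over DN was past the p threshold but short of the fold criterion (-0.70, SE 0.153, limma adjusted p = 0.00774). Among the alternatives run, it was called there only when libraries were rescaled to pan-sensory-neuron genes (-1.24, limma adjusted p = 0.000282), and it was at -0.25 after quantile normalization (limma adjusted p = 0.27).

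Kcnk13 (Entrez 217826, chr12:99964499-100062682) encodes THIK-1, the channel-forming partner, known from microglia. It was at 20.4 and 18.1 RPKM in DP, 11.0 and 9.45 in C-LTMR, and 0.794 and 0.886 in DN. The subsets did not overlap, and both GINIP+ subsets stood far above DN. DP was 22.9-fold above DN (log2 fold change 4.36, SE 0.136, limma adjusted p = 5.05e-06) and C-LTMR 12.2-fold above DN (3.46, SE 0.136, limma adjusted p = 8.40e-06). DP was 1.88-fold above C-LTMR, past the p threshold but short of the fold criterion (0.90, SE 0.136, limma adjusted p = 0.00345). That last difference was called without C-LTMR replicate 1 (1.01, limma adjusted p = 0.0145) and with rescaling to pan-sensory-neuron genes (1.01, limma adjusted p = 0.0136). Macrophage and other immune markers, given above, also differed between subsets, and their part in the Kcnk13 levels was not tested. Of these markers 1 of 10 was higher and 4 of 10 were lower in DP than in DN. C1qa, the 1 that was higher, was at 0.351 and 0.771 RPKM in DP, 0.0270 and 0.0286 in C-LTMR, and 0.119 and 0.0573 in DN. C1qb, among the 4 that were lower, was at 0.661 and 0.811 RPKM in DP, 0.138 and 0.175 in C-LTMR, and 2.12 and 1.63 in DN. The ratio of Kcnk12 to Kcnk13 was 1.09 and 1.23 in DP, 0.186 and 0.236 in C-LTMR, and 5.10 and 3.48 in DN, so the balance of the pair differed between all 3 subsets with no overlap of libraries.

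Kcnk18 (Entrez 332396, chr19:59219648-59237370) encodes TRESK, the calcineurin-activated background channel of sensory neurons. It was at 5.14 and 6.44 RPKM in DP, 4.61 and 4.87 in C-LTMR, and 0.102 and 0.133 in DN. The DN values stand for about 13.6 and 14.8 reads on the longest GENCODE coding transcript, above the floor of 3 reads. Mean levels were 49.4-fold higher in DP than in DN (log2 fold change 4.76, SE 0.180, limma adjusted p = 8.48e-06) and 40.5-fold higher in C-LTMR than in DN (4.48, SE 0.180, limma adjusted p = 8.84e-06). With a pseudocount of 1 these log2 fold changes were 2.597 and 2.362, since the DN level is low beside it. DP and C-LTMR did not pass against each other (0.27, SE 0.180, limma adjusted p = 0.313). Both GINIP+ subsets stood far above DN, and both DP libraries were above both C-LTMR libraries.

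Kcnk1 (Entrez 16525, chr8:125995102-126030688) encodes TWIK-1, a weakly active channel that cycles through endosomes. It was at 4.87 and 3.90 RPKM in DP, 16.4 and 14.8 in C-LTMR, and 12.9 and 10.05 in DN. C-LTMR was the highest and DP the lowest subset, and no libraries overlapped between subsets. DP was 3.56-fold below C-LTMR (log2 fold change -1.81, SE 0.166, limma adjusted p = 0.000416) and 2.62-fold below DN (-1.37, SE 0.166, limma adjusted p = 0.000558). C-LTMR over DN did not pass (0.45, SE 0.166, limma adjusted p = 0.0555), and it turned round with rescaling to pan-sensory-neuron genes (-0.11, limma adjusted p = 0.607).

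The mechano- and thermosensitive TREK and TRAAK genes were all highest in DN. Together Kcnk2, Kcnk4 and Kcnk10 made up 4.94% ± 0.625 of the summed K2P level in DP, 8.08% ± 0.947 in C-LTMR, against 39.8% ± 0.902 in DN (SD, n = 2 libraries each). Kcnk2 (Entrez 16526, chr1:189207930-189344192), the TREK-1 gene, was at 0.828 and 0.632 RPKM in DP, 0.206 and 0.227 in C-LTMR, and 14.4 and 12.4 in DN. Each subset stood apart, with C-LTMR lowest. DP was 18.3-fold below DN (log2 fold change -4.03, SE 0.190, limma adjusted p = 1.55e-05). C-LTMR was 61.9-fold below DN (-5.41, SE 0.190, limma adjusted p = 6.13e-06), or -3.56 with a pseudocount of 1. DP was 3.37-fold above C-LTMR (1.38, SE 0.190, limma adjusted p = 0.00238), a difference between low levels that fell short of the fold criterion with a pseudocount of 0.5 (0.78) or 1 (0.51).

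Kcnk4 (Entrez 16528, chr19:6925690-6934515), the gene of the stretch- and heat-activated channel TRAAK, was at 1.37 and 0.810 RPKM in DP, 2.15 and 1.67 in C-LTMR, and 9.06 and 5.20 in DN. Its DN libraries lay furthest apart of any member in relative terms, but both were above all other libraries. DP was 6.55-fold below DN (log2 fold change -2.59, SE 0.331, limma adjusted p = 0.000711) and C-LTMR 3.73-fold below DN (-1.80, SE 0.331, limma adjusted p = 0.00360). DP over C-LTMR did not pass (-0.79, SE 0.331, limma adjusted p = 0.128). Kcnk10 (Entrez 72258, chr12:98433994-98577940), the TREK-2 gene, was at 0.865 and 1.001 RPKM in DP, 1.01 and 0.718 in C-LTMR, and 5.66 and 4.83 in DN. The GINIP+ subsets overlapped for this gene, and DN lay above both. DP was 5.62-fold below DN (-2.37, SE 0.208, limma adjusted p = 0.000137) and C-LTMR 6.06-fold below DN (-2.48, SE 0.208, limma adjusted p = 0.000113). DP over C-LTMR was 0.11 on the log2 scale (SE 0.208, limma adjusted p = 0.742). Within the trio the ratio of Kcnk2 to Kcnk4 was 0.606 and 0.780 in DP, 0.0961 and 0.135 in C-LTMR, and 1.59 and 2.38 in DN.

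The genes of the pH-sensitive channels, Kcnk3 and Kcnk5, were also highest in DN. Kcnk3 (Entrez 16527, chr5:30588170-30625270), the TASK-1 gene, was at 1.15 and 0.809 RPKM in DP, 0.835 and 0.976 in C-LTMR, and 23.5 and 18.5 in DN, where it was the highest member. DP and C-LTMR overlapped, and DN stood apart from both. DP was 21.4-fold below DN (log2 fold change -4.30, SE 0.211, limma adjusted p = 1.70e-05) and C-LTMR 23.1-fold below DN (-4.38, SE 0.211, limma adjusted p = 1.48e-05). DP over C-LTMR was 0.09 (SE 0.211, limma adjusted p = 0.806).

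Kcnk5 (Entrez 16529, chr14:20140058-20181782), the gene of the alkaline-activated channel TASK-2 of the TALK group, was at 0.184 and 0.309 RPKM in DP, 0.182 and 0.341 in C-LTMR, and 1.62 and 2.25 in DN. DN was the higher subset at a low level throughout. DP was 7.84-fold below DN (log2 fold change -2.56, SE 0.316, limma adjusted p = 0.000611) and C-LTMR 7.39-fold below DN (-2.51, SE 0.316, limma adjusted p = 0.000681). With a pseudocount of 1 these were -1.23 and -1.21. DP over C-LTMR was -0.05 (SE 0.316, limma adjusted p = 0.933). Kcnk9 (Entrez 223604, chr15:72512119-72546279), the TASK-3 gene, was listed at 0 in all 6 libraries. For a transcript of 1 kb, 3 reads would correspond to 0.0718 to 0.0935 RPKM in these libraries. The longest GENCODE coding transcript of Kcnk9 has 12300 bases, and on that length 3 reads would give a lower RPKM.

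**Figure D3:**
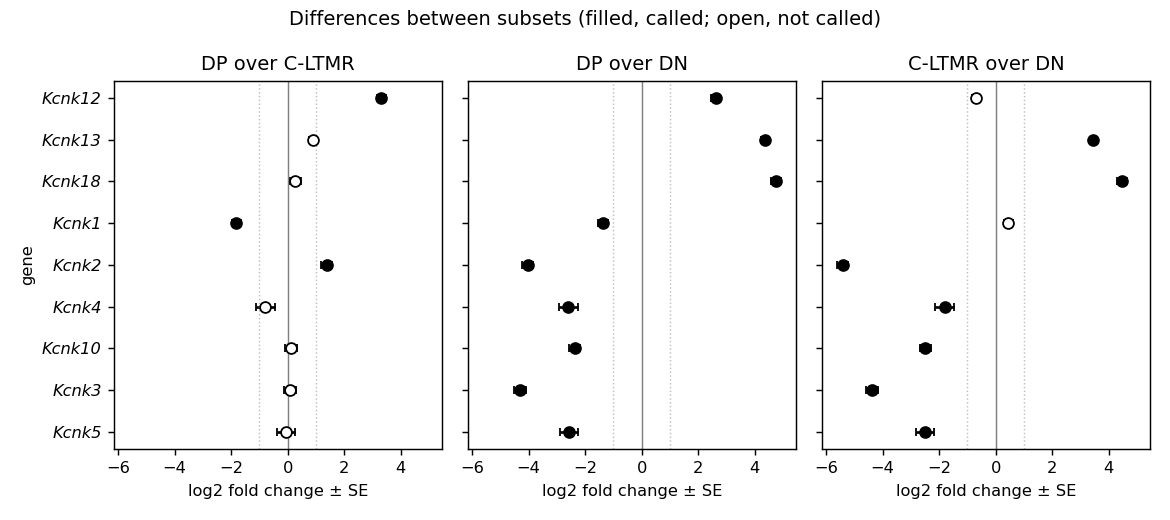
Log2 fold change of the 9 tested genes in the 3 comparisons (horizontal axes), with bars for the standard error; filled points were called and open points not, dotted lines mark a log2 fold change of 1 in either direction. Kcnk12 at 3.32 and Kcnk1 at -1.81 stood out between DP and C-LTMR, whereas all 9 genes were called between DP and DN.

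The order of the members differed between subsets. In DP it ran Kcnk12, Kcnk13, Kcnk18 and Kcnk1, followed by Kcnk4, Kcnk3 and Kcnk10, whose neighbours in that run overlapped, and then by Kcnk2 and Kcnk5. In C-LTMR it ran Kcnk1, Kcnk13 and Kcnk18, then Kcnk12 and Kcnk4, which overlapped, then Kcnk3 and Kcnk10, which overlapped, and Kcnk5 and Kcnk2, which overlapped. In DN Kcnk3 led, Kcnk2 and Kcnk1 overlapped, Kcnk4 and Kcnk10 overlapped, and Kcnk12, Kcnk5, Kcnk13 and Kcnk18 followed in falling order. The DN libraries differed in their marker sums: satellite glia markers summed to 7587 in DN replicate 1 and 17472 in DN replicate 2, and pan-sensory-neuron genes to 11389 in DN replicate 1 and 8438.5 in DN replicate 2. Kcnk1, Kcnk2, Kcnk3, Kcnk4, Kcnk10 and Kcnk12 were higher in DN replicate 1, and Kcnk5, Kcnk13 and Kcnk18 in DN replicate 2. In DN replicates 1 and 2, Kcnk13 rested on about 94.5 and 87.5 reads and Kcnk18 on about 13.6 and 14.8. For these 2 genes the difference between the DN libraries was within counting error. Without DN replicate 1 or without DN replicate 2, 9 members were called between DP and DN and 7 between C-LTMR and DN, as with both.

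Genes whose profile lay closest to the leading member of each subset were sought by the root-mean-square distance of centred log2 levels over the 6 libraries, among 11613 genes with a mean of at least 1 RPKM. Closest to Kcnk12 were Nbea (distance 0.239), Rgs7 (0.267), an RGS regulator of G protein signalling, and Arap1 (0.278). Closest to Kcnk1 were Efr3b (0.0755), Pdia5 (0.111) and Fam69b (0.132). Closest to Kcnk3 were Gfra3 (0.168), the artemin co-receptor gene known from peptidergic nociceptors, Wscd2 (0.180) and Gpr26 (0.192). Gfra3 was at 13.2 ± 1.30 RPKM in DP, 12.9 ± 0.00680 in C-LTMR, against 222 ± 14.7 in DN (SD, n = 2 libraries each).

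The other 4 mouse K2P genes were low. Kcnk7, whose product has not given a current in expression systems, was at 0.936 and 0.865 RPKM in DP, 0.936 and 0.693 in C-LTMR, and 0.138 and 0.228 in DN. It was higher in DP than in DN (log2 fold change 1.84, SE 0.246, limma adjusted p = 0.000865) and in C-LTMR than in DN (1.70, SE 0.246, limma adjusted p = 0.00127). Kcnk6, the TWIK-2 gene, was listed at 0 in DP and C-LTMR and was at 0.201 and 0.379 RPKM in DN. Kcnk16 was at 0.155 and 0.0594 RPKM in DP, 0.220 and 0.176 in C-LTMR, and 0 and 0.0353 in DN, close to the floor in DP and DN, and Kcnk15 was listed at 0 throughout.

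Of 34 known partners and regulators of K2P channels, 3 were higher and 5 lower in DP than in C-LTMR, 6 higher and 5 lower in DP than in DN, and 4 higher and 4 lower in C-LTMR than in DN. Of all genes tested 15.2%, 33.3% and 32.1% were called in these comparisons. The medians of the list were -0.04, -0.09 and 0.00, near those of all genes tested. Prkca, a protein kinase C that inhibits TREK channels, was at 98.4 and 109.7 RPKM in DP, 19.2 and 18.9 in C-LTMR, and 4.79 and 4.07 in DN. It was called in all 3 comparisons, with log2 fold changes of 2.44 in DP over C-LTMR (limma adjusted p = 5.00e-05), 4.52 in DP over DN (limma adjusted p = 3.13e-06) and 2.08 in C-LTMR over DN (limma adjusted p = 2.03e-05). Bves, which encodes a Popeye domain protein that binds TREK-1, was at 3.74 and 3.93 RPKM in DP, 29.9 and 27.8 in C-LTMR, and 40.3 and 32.8 in DN (DP over C-LTMR -2.88, limma adjusted p = 4.28e-05). Sort1, the gene of the TREK-1 partner sortilin, was lower in DP than in DN (-2.79, SE 0.171, limma adjusted p = 3.49e-05) and in C-LTMR than in DN (-1.71, SE 0.171, limma adjusted p = 0.000242). Mtap2, the gene of the microtubule protein that binds TREK-1, was also lower in DP than in DN (-2.76, SE 0.217, limma adjusted p = 9.00e-05) and in C-LTMR than in DN (-2.54, SE 0.217, limma adjusted p = 0.000124). Plcb3, a phospholipase C downstream of Gq-coupled receptors that close several K2P channels, was at 73.1 and 73.3 RPKM in DP, 19.4 and 16.8 in C-LTMR, and 19.5 and 14.3 in DN (DP over C-LTMR 2.02, limma adjusted p = 0.000234). Plcb1, of the same enzyme family, was at 0.831 and 1.07 RPKM in DP, 3.46 and 3.77 in C-LTMR, and 3.31 and 3.93 in DN (DP over C-LTMR -1.83, limma adjusted p = 0.000534). The kinase gene Mark1 was at 5.41 and 5.92 RPKM in DP, 14.2 and 16.01 in C-LTMR, and 2.13 and 1.22 in DN, and was higher in C-LTMR than in DN (3.14, limma adjusted p = 7.92e-05).

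The sodium leak complex opposes the potassium leak at rest. Of its 4 genes in the table, 2 were lower and 0 higher in DP than in C-LTMR, 2 lower and 0 higher in DP than in DN, and 1 lower and 0 higher in C-LTMR than in DN, as counted by limma, with 15.2%, 33.3% and 32.1% of all genes called. The auxiliary gene Fam155a was at 0.695 and 0.541 RPKM in DP, 3.65 and 3.73 in C-LTMR, and 4.88 and 3.02 in DN, and DP was lower than C-LTMR (log2 fold change -2.41, SE 0.247, limma adjusted p = 0.000679) and DN (-2.46, SE 0.247, limma adjusted p = 0.000243). Unc80, a scaffold of the complex, was at 0.643 and 0.907 RPKM in DP, 1.65 and 1.88 in C-LTMR, and 3.85 and 4.39 in DN, and was called in all 3 comparisons. The pore gene Nalcn averaged 3.34 ± 0.0513 RPKM in DP, 4.18 ± 0.269 in C-LTMR, against 4.07 ± 0.799 in DN (SD, n = 2 libraries each) and was not called.

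Of 15 inward rectifier genes 12 were tested, and 3 were higher and 3 lower in DP than in C-LTMR, 1 higher and 8 lower in DP than in DN, and 4 higher and 7 lower in C-LTMR than in DN, where 15.2%, 33.3% and 32.1% of all genes tested were called, 25.5% with DN above DP and 23.5% with DN above C-LTMR. Kcnj12, a strong inward rectifier gene, was at 8.83 and 9.02 RPKM in DP, 34.9 and 38.4 in C-LTMR, and 6.93 and 5.17 in DN, highest in C-LTMR as Kcnk1 was (DP over C-LTMR -2.02, limma adjusted p = 0.000191). Kcnj4 was at 0.210 and 0.206 RPKM in DP, 4.77 and 6.58 in C-LTMR, and 1.097 and 0.427 in DN (DP over C-LTMR -4.21, limma adjusted p = 0.000420). Kcnj11, the pore of the ATP-sensitive channel, was at 3.32 and 4.02 RPKM in DP, 0.930 and 1.24 in C-LTMR, and 0.0576 and 0 in DN. Among the genes highest in DN, Kcnj2 was at 0.170 and 0.192 RPKM in DP, 0.0322 and 0.0398 in C-LTMR, and 2.57 and 2.63 in DN. Kcnj8 was at 0.0326 and 0.0119 RPKM in DP, 0 and 0 in C-LTMR, and 1.04 and 2.66 in DN. The log2 fold change in DP over DN was -3.27 for Kcnj2 (limma adjusted p = 2.95e-05) and -3.87 for Kcnj8 (limma adjusted p = 0.000305). Kcnj10, which is also one of the satellite glia markers and so is counted in their sum, was at 1.99 and 2.98 RPKM in DP, 1.73 and 3.71 in C-LTMR, and 13.7 and 29.2 in DN.

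All 7 sodium- and calcium-activated potassium channel genes were tested, and 2 were higher and 2 lower in DP than in C-LTMR, 3 higher and 4 lower in DP than in DN, and 2 higher and 2 lower in C-LTMR than in DN, beside the same 15.2%, 33.3% and 32.1% of all genes. Kcnn1, a small-conductance calcium-activated channel gene, was at 27.6 and 30.8 RPKM in DP, 19.1 and 21.8 in C-LTMR, and 2.21 and 1.77 in DN, and like Kcnk13 it was higher in both GINIP+ subsets than in DN (log2 fold change 3.81 in DP and 3.30 in C-LTMR, limma adjusted p = 8.30e-06 and 1.04e-05). Kcnt1, the sodium-activated Slack gene, was at 8.56 and 7.89 RPKM in DP, 4.39 and 3.73 in C-LTMR, and 2.05 and 1.35 in DN, while its relative Kcnt2 was at 0.0584 and 0.0972, 0.221 and 0.240, and 1.62 and 1.55 in the same subsets. Kcnma1, the large-conductance channel gene, was higher in DP than in C-LTMR (1.72, SE 0.197, limma adjusted p = 0.00109) and DN (2.21, SE 0.197, limma adjusted p = 0.000149). Kcnn4 went the other way, at 3.69 and 4.19 RPKM in DP, 2.29 and 4.23 in C-LTMR, and 19.9 and 42.3 in DN. Its log2 fold change was -2.85 in DP over DN (limma adjusted p = 0.00103) and -3.18 in C-LTMR over DN (limma adjusted p = 0.000647).

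**Figure D4:**
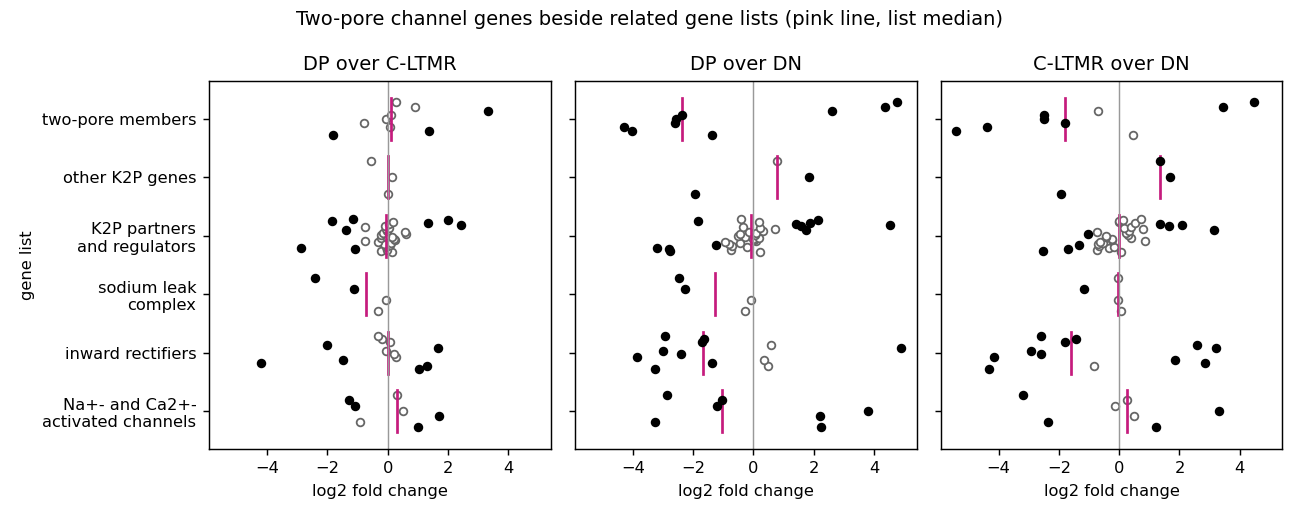
Log2 fold change of each tested gene in the 3 comparisons (horizontal axes) for the two-pore members and 5 related lists (rows); filled points were called, open points not, pink lines are list medians, and vertical jitter has no meaning; a gene listed at 0 in a subset is drawn at its fitted value, which depends on the pseudocount. The member median lay at -2.37 in DP over DN and -1.80 in C-LTMR over DN, with members far out on both sides of 0.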

How the data were processed

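Total RNA of 6 sorted libraries was profiled. Per the labels' protocols, 50 ng of RNA per sample was amplified before TruSeq RNA library construction, which can shift the relative levels of genes. Per the submitters' processing notes, CASAVA 1.8.2, edgeR 2.6.2 and the build GRCm38 (mm10) were used; their roles, gene lengths and strand use are not stated in those notes or labels. The deposited RPKM table holds 23029 genes. The authors' second table, a TMM-normalized count used as a signal, holds 6620 genes and 5 of the members. Neither holds raw counts, and whole reads were not recovered. Steps of low RPKM values gave depths of 32.1 to 41.8 M reads per library. Each was the depth, among those tried, that put the largest share of low values within 0.05 of whole reads. That share was 52.9% to 62.0%. It is a maximum over depths, whereas the 10% that chance gives holds for a fixed depth. Floors cover counting error only.

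The members and lists were chosen with earlier results of these data known. All 6 libraries entered 1 limma 3.58.1 fit (R 4.3.3, eBayes with a trend) on log2(RPKM + 0.1), a scale that understates changes of low genes. Exact permutation of 2 against 2 libraries cannot go below p = 0.333 and was not used. Named genes were all members, the other K2P genes, the called genes of largest change in each related list (up to 4 per comparison; not all are printed) and the 3 nearest profiles of each subset's leading member; Nalcn was added after its values were seen. Other scalings, pseudocounts, filters, the second table, a replicate block and leaving out each library were tried. Python 3.11.15 with pandas 2.3.3 and matplotlib 3.10.9 made tables and plots.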

Additional observations from a re-analysis of the deposited data

How the results depend on the processing

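Of 447 values of single members under the alternatives, 434 kept their direction and their side of the threshold, 8 changed sign, 3 became called and 2 were no longer called; the cause was not tested. Genes called in DP over C-LTMR, DP over DN and C-LTMR over DN numbered 1192, 3140 and 3012 with a pseudocount of 1, against 2358, 5172 and 4993 as reported, and 1529 in DP over C-LTMR with 0.5. Genes enter the TMM-normalized table through a subset where they are high, so calls of its 5 members there are no separate support. On this table, genes called in these comparisons numbered 843, 1645 and 1562, with 5 members called in DP over DN and 3 in C-LTMR over DN. With 1 library left out, they ranged from 1892 to 2338, 4842 to 5304 and 4582 to 5228, and members called from 3 to 4, 9 to 9 and 7 to 7. All changes of sign were in differences that were not called. Kcnk5 in DP over C-LTMR was 0.002962 with median ratio rescaling and 0.02483 with rescaling to pan-sensory-neuron genes, and Kcnk1 in C-LTMR over DN was -0.1089 with the same rescaling. With 1 library left out, DP over C-LTMR ranged from -0.1425 to 0.3148 for Kcnk3, from -0.3706 to 0.2709 for Kcnk5 and from -0.1113 to 0.3342 for Kcnk10.

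Quantile normalization gave 2480 genes higher and 2716 lower in DP over DN, and 2507 higher and 2605 lower in C-LTMR over DN, against 1205 higher and 3967 lower and 1334 higher and 3659 lower as reported. With libraries rescaled to pan-sensory-neuron genes, 784 were higher and 5458 were lower in DP over DN and 804 higher and 5272 lower in C-LTMR over DN. The TMM-normalized values gave 615 higher and 1030 lower in DP over DN and 594 higher and 968 lower in C-LTMR over DN. The median log2 fold change of all genes moved to 0.146 in DP over DN and 0.167 in C-LTMR over DN with quantile normalization, and to -0.635 and -0.629 with rescaling to pan-sensory-neuron genes, and no member called against DN lost its call under either. Deviations of same-numbered replicates correlated at 0.286 between DP and C-LTMR, 0.0888 between DP and DN and 0.230 between C-LTMR and DN, so the numbers were not shown to pair the libraries. A replicate block gave 2442, 5208 and 5018 genes called and changed no call of a member. With estimated depths of 32.1 to 41.8 M reads, levels near 0.1 RPKM rest on few reads.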
